A study of Mus musculus with 18 samples.

Results

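Alternatively activated macrophages are macrophages that have responded to interleukin 4 or interleukin 13, and 10 genes in common use as their markers in the mouse were followed here across 18 tumour libraries. The genes were chosen by symbol: Arg1, Mrc1, Cd163, Retnla, Chil3, Mgl2, Clec10a, Folr2, Lyve1 and Ccl24. Of the 21015 genes in the count table, 9 of these 10 were analysed, and Retnla was not analysed here. Each of the 9 passed the filter on low counts.

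The tumours were MC38-OVA, a mouse colon carcinoma line carrying the model antigen ovalbumin, implanted into wild-type (WT) mice or mice lacking Adra2a (KO), the gene of the alpha-2A adrenergic receptor. Hosts of an age given as 10 weeks received the alpha-2 agonists clonidine or guanabenz, or PBS, by a daily intraperitoneal injection, and tumours were taken 7 days after treatment. The labels give no doses. There were 3 libraries in each of 6 groups: the WT hosts gave WT-Control, WT-Clonidine and WT-Guanabenz, and the KO hosts gave KO-Control, KO-Clonidine and KO-Guanabenz. All groups carried the same implanted tumour line, and the genotype is that of the host. The control libraries are entered as untreated, although the protocol names PBS. The 3 libraries titled KO-Guanabenz are also entered as untreated, against their titles. The titles were followed, and every value for KO-Guanabenz below carries that conflict, as do comparisons with KO-Control, which would gain 3 libraries under the other reading. Nothing in the labels ties a library to an animal, so p-values measure the spread between libraries, which may be technical in part.

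Interleukin 4 and interleukin 13 bind receptors that contain Il4ra, and the signal reaches the nucleus through the transcription factor Stat6. In macrophages this raises a set of secreted proteins, enzymes and lectins, and it is known from helminth infection, wound repair, adipose tissue and tumours. The genes followed here are not equally tied to that signal: Arg1, Retnla, Chil3, Mgl2 and Ccl24 are classical targets of it in the mouse, while Cd163, Folr2 and Lyve1 mark resident and perivascular macrophages. Some of them are not made by macrophages alone. Mgl2 and Clec10a are also found on dendritic cells, and Lyve1 is a classical marker of lymphatic endothelium.

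STAT proteins recognise a short palindrome, and the promoters of the genes were searched for it on both strands, as TTCNNNGAA and as the longer TTCNNNNGAA that Stat6 favours. RefSeq promoter windows of GRCm38.p6, from 250 bases before to 50 bases after the start of transcription, were matched for 6 of the 10 genes, in 7 windows. A match occurred in 2 of these windows. Of 32851 mouse windows of the same length, 8.30% held the shorter form and 6.95% the longer one. The 250 bases before the start of Chil3 (chr3:106167565-106167814, minus strand) are shown because Chil3 had the largest differences in WT hosts below. The capitals mark its match to the shorter form, which begins at position -172 from the start.

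Chil3: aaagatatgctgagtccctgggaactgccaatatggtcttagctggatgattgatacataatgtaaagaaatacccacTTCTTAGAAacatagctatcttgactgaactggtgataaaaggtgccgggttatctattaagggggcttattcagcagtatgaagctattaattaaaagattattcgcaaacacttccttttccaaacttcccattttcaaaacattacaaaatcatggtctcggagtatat

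The other match, to the longer form, was in the window of Retnla, which was not analysed here. Neither form was in the windows of Mrc1, Cd163, Mgl2 or Folr2, the last of which has 2 windows. A match is a description of the letters and not evidence of binding.

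Library totals ran from 54683838 to 491137160 counts. Counting error is not negligible for the scarcest gene, Ccl24, which had 24 to 296 counts per library. Adra2a was at 0.0917 to 0.293 counts per 1000000 (CPM) in the KO libraries and at 0.286 to 0.589 CPM in the WT libraries, with a log2 difference of -1.22 ± 0.20 (SE) averaged over treatments (edgeR quasi-likelihood test, adjusted p = 0.016). Markers of the labelled tissue were uneven. The epithelial keratins Krt8 and Krt18 stayed at or below 0.450 and 0.534 CPM, and the intestinal factor Cdx2 was at 0 in 17 of 18 libraries. The epithelial genes Cdh1, Epcam and Vil1 were at 3.08 to 9.75, 0.375 to 2.75 and 0.0912 to 0.244 CPM. The leukocyte gene Ptprc was at 114 to 177 CPM. Y-linked genes were present in all 3 WT-Control libraries, in 2 of 3 in each of 4 other groups and in 0 of 3 in KO-Clonidine, and a term for them was added to the model as an alternative. With that term the median log2 difference of the 9 genes, given below, went from 0.28 to 0.15 for clonidine in WT hosts, from 0.06 to -0.17 for clonidine in KO hosts and from -0.29 to -0.47 for the genotype averaged over treatments. For the clonidine difference in WT hosts minus that in KO hosts, the median went from 0.41 to 0.61. In bulk tumour, fewer cells of a type and less RNA per cell cannot be told apart.

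On GRCm38.p6 the genes lie apart, except for 1 pair. The positions are Arg1 at chr10:24915207-24927470, Mrc1 at chr2:14229414-14332023, Cd163 at chr6:124304636-124330529, Chil3 at chr3:106147554-106167564 and Ccl24 at chr5:135569935-135573123. Folr2 and Lyve1 are on the same chromosome, Folr2 at chr7:101839988-101857190 and Lyve1 at chr7:110850607-110862953. The lectin pair is Mgl2 at chr11:70130125-70137542 and Clec10a at chr11:70166623-70170836.

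Per kilobase of the longest coding transcript, the genes spanned a wide range of levels. Mrc1, the mannose receptor, and Arg1, the arginase that turns arginine into ornithine and urea, stood highest, at means of 45.8 and 41.5 CPM per kilobase over the 18 libraries. Folr2, a folate receptor, followed at 22.1. The other 6 lay between 2.96 for Mgl2 and 0.659 for Ccl24, with Clec10a at 2.22, Cd163 at 2.03, Chil3 at 2.00 and Lyve1 at 1.76 CPM per kilobase. Neighbours in this order were often not separable: Mrc1 exceeded Arg1 in 11 of 18 libraries, Cd163 exceeded Chil3 in 12, and Chil3 exceeded Lyve1 in 9. Folr2, by contrast, exceeded Mgl2 in 18 of 18, and Lyve1 exceeded Ccl24 in 17.

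The genes also differed in how much they varied. The highest library was 1.87 times the lowest for Mrc1, against 10.1 times for Cd163 and 10.0 times for Lyve1. The SD within groups, on the log2 scale, was 0.22 for Mrc1 and 0.46 for Folr2, and 0.78 for Lyve1, the largest of the 9. The share of a gene's variation that lay between groups ran from 18.0% for Arg1 to 52.2% for Chil3.

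**Figure D1:**
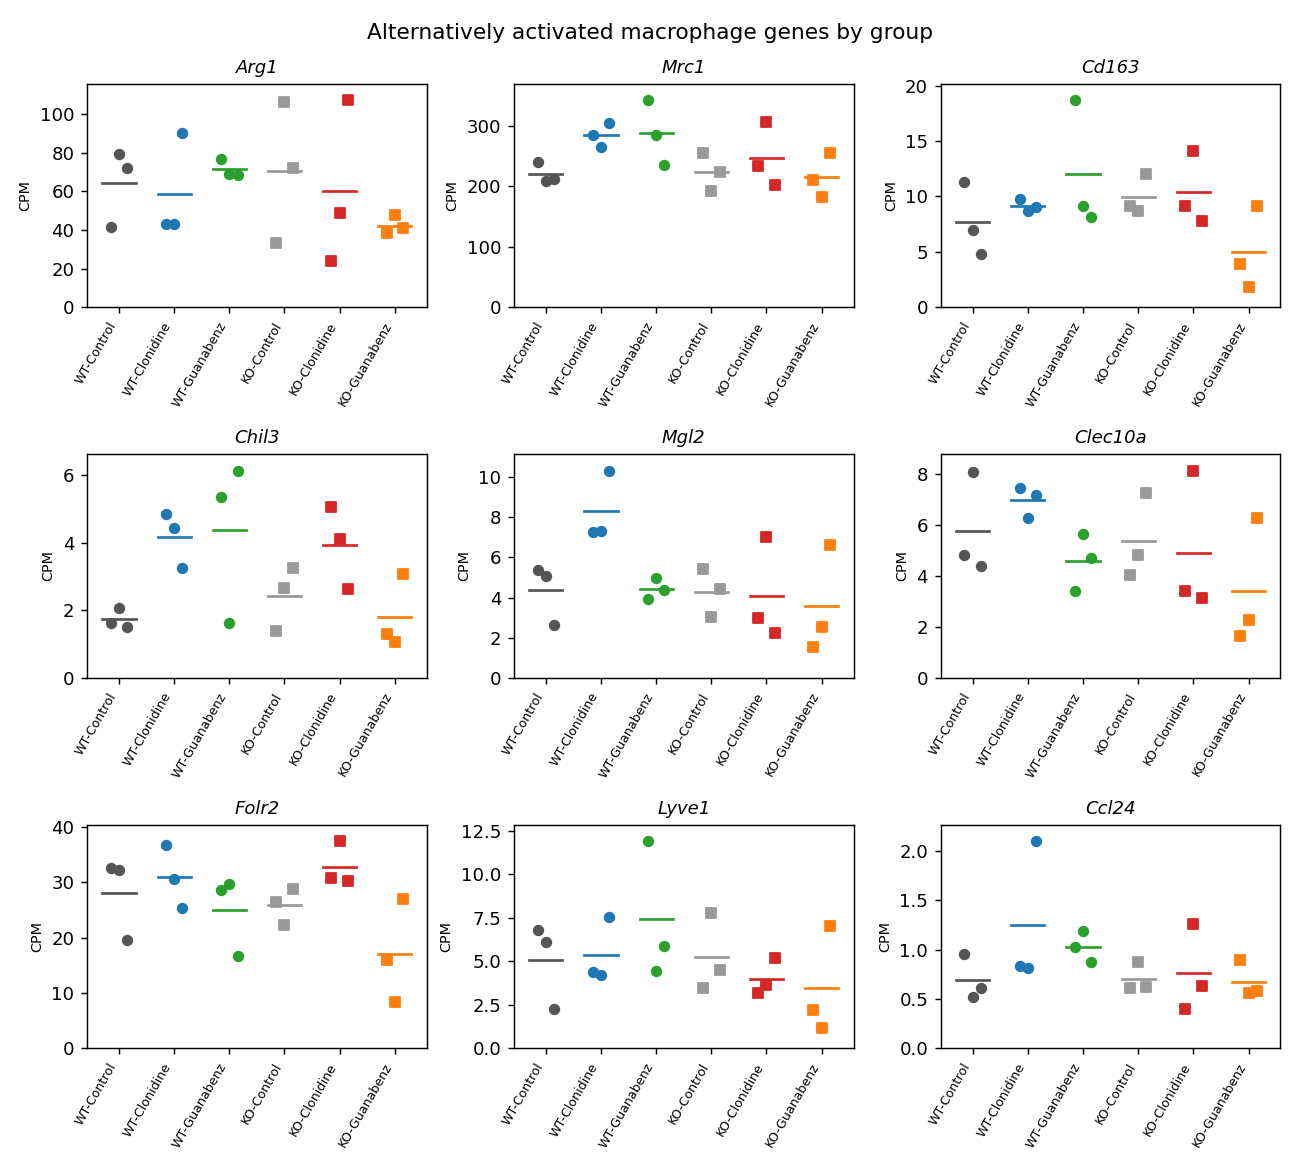
Level of each gene in CPM (vertical axis, from 0) in the 3 libraries of each of the 6 groups, with circles for WT and squares for KO hosts and a bar at the group mean. Mrc1 stays between 182 and 342 CPM in all libraries, while 2 of the 3 KO-Guanabenz libraries lie low for Cd163, Chil3, Mgl2, Clec10a, Folr2 and Lyve1.

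The first question was what each drug did in WT hosts, where both comparisons share the same 3 control libraries. No gene of the 9 passed the test after either drug (edgeR quasi-likelihood test, Benjamini-Hochberg adjusted over 16125 genes, threshold 0.05). Nor did any other gene: the share called was 0% for clonidine and 0% for guanabenz. At an unadjusted p under 0.05 there were 2079 genes for clonidine and 1845 for guanabenz, or 12.9% and 11.4% of those tested, and 2 of the 9 in each comparison, Mrc1 and Chil3. With DESeq2, which called 355 and 171 genes, none of the 9 passed either.

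Among the secreted products, Chil3, a chitinase-like lectin also known as Ym1, had the largest differences. Its level was 1.63, 2.07 and 1.51 CPM in WT-Control and 4.87, 4.43 and 3.25 CPM in WT-Clonidine, so the groups did not overlap. In WT-Guanabenz it was 5.37, 1.61 and 6.14 CPM, with the second library among the controls. The log2 differences were 1.28 ± 0.45 (SE) for clonidine, with a 95% interval of 0.32 to 2.23 and adjusted p = 0.249, and 1.34 ± 0.45 for guanabenz, with an interval of 0.38 to 2.30 and adjusted p = 0.282. Over the alternative fits and left-out libraries the Chil3 difference ran from 1.14 to 1.42 for clonidine and from 1.01 to 1.74 for guanabenz. Chil3 shares 44.0% of its 31-base words with other genes, and 30.6% with its neighbour family member Chil4, which had at most 1 count in any library.

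Ccl24, a chemokine for eosinophils, was the scarcest of the 9. It was at 0.954, 0.524 and 0.613 CPM in WT-Control, 0.837, 0.816 and 2.10 CPM in WT-Clonidine and 1.03, 1.19 and 0.877 CPM in WT-Guanabenz. A single WT-Clonidine library, the third, stood above the rest. The log2 difference was 0.83 ± 0.41 for clonidine (adjusted p = 0.401), or 0.25 without that library, and 0.57 ± 0.41 for guanabenz (adjusted p = 0.625).

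Of the lectin receptors, Mrc1 lay at 240, 208 and 212 CPM in WT-Control, 285, 264 and 304 CPM in WT-Clonidine and 342, 285 and 234 CPM in WT-Guanabenz. All 3 clonidine libraries were above all 3 controls, and 1 guanabenz library was below the highest control. The log2 differences were small and similar in size, 0.37 ± 0.16 for clonidine (adjusted p = 0.336) and 0.38 ± 0.16 for guanabenz (adjusted p = 0.379).

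Mgl2 and Clec10a encode the paired galactose-type lectins, and they sit near each other on chromosome 11. Mgl2 was at 5.37, 5.10 and 2.64 CPM in WT-Control and at 7.25, 7.32 and 10.3 CPM in WT-Clonidine, with no overlap, but at 3.93, 4.96 and 4.38 CPM in WT-Guanabenz. Its log2 difference was 0.93 ± 0.46 for clonidine (adjusted p = 0.403) and 0.03 ± 0.46 for guanabenz (adjusted p = 0.988). Clec10a was at 4.82, 8.10 and 4.41 CPM in WT-Control, 7.47, 6.28 and 7.18 CPM in WT-Clonidine and 3.40, 5.64 and 4.71 CPM in WT-Guanabenz. Its groups overlapped for both drugs, at log2 differences of 0.28 ± 0.43 and -0.33 ± 0.43. The 2 genes share sequence: 20.3% of the 31-base words of Mgl2 occur in Clec10a and 13.4% of those of Clec10a in Mgl2, so their counts are not fully separate. Folr2 shares 51.4% of its words with Gm10602, which was not analysed here.

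Arg1 was at 41.7, 79.5 and 72.0 CPM in WT-Control, 42.9, 43.0 and 90.1 CPM in WT-Clonidine and 76.9, 69.2 and 68.7 CPM in WT-Guanabenz. Among the drug libraries, 1 lay above all 3 controls and none below all 3. The log2 differences were -0.14 ± 0.45, with a 95% interval of -1.09 to 0.81, and 0.15 ± 0.45, with an interval of -0.80 to 1.10, so a 2-fold lower level after clonidine and a 2-fold higher level after guanabenz both lie within the intervals.

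The genes of resident macrophages overlapped between groups in WT hosts. Cd163, the haemoglobin scavenger receptor, was at 11.3, 7.01 and 4.77 CPM in WT-Control, 9.76, 8.72 and 9.00 CPM in WT-Clonidine and 18.7, 9.13 and 8.16 CPM in WT-Guanabenz. Folr2 was at 32.5, 32.2 and 19.6, then 36.8, 30.6 and 25.4, then 28.5, 29.7 and 16.6 CPM in the same order of groups. Lyve1, a hyaluronan receptor, was at 6.78, 6.11 and 2.24, then 4.37, 4.21 and 7.53, then 11.9, 4.45 and 5.89 CPM. Single libraries stood out: WT-Control 3 was the lowest WT library for Cd163 and Lyve1, and WT-Guanabenz 1 was the highest of all 18 for both. Their log2 differences lay between 0.10 and 0.26 for clonidine and between -0.17 and 0.64 for guanabenz.

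Taken as a list, 8 of 9 differences were positive for clonidine and 7 of 9 for guanabenz, with medians of 0.28 and 0.38 where the medians over all genes tested were 0.00 and 0.01. These medians leaned on single libraries: the one for clonidine was 0.11 without WT-Control 3 and 0.43 without WT-Control 1, and the one for guanabenz was 0.10 without WT-Guanabenz 1. Groups that did not overlap were found for 3 of 9 genes after clonidine, Mrc1, Chil3 and Mgl2, beside 20.9% of all genes tested, and for 0 of 9 after guanabenz, beside 14.6%.

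**Figure D2:**
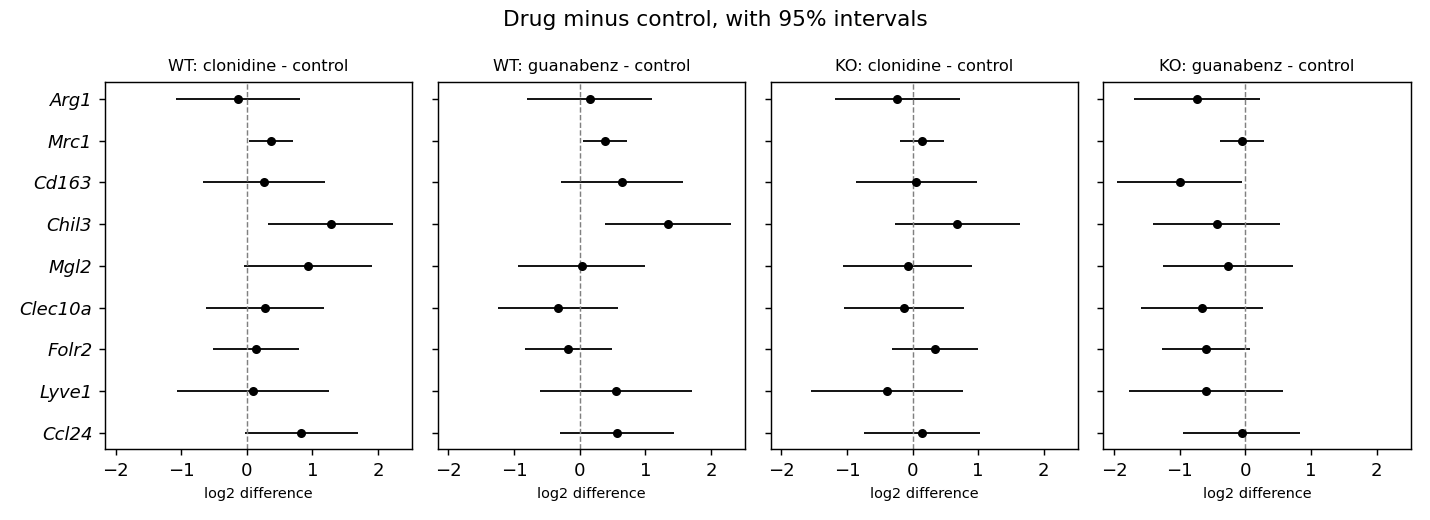
Log2 difference of each drug from its own control (horizontal axis), with 95% intervals, for the 9 genes in WT and KO hosts. Chil3 lies furthest right in both WT panels, at 1.28 and 1.34, and all 9 points lie left of 0 for guanabenz in KO hosts, where no adjusted p was below 0.302.

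The drugs were then compared directly in WT hosts, where the controls play no part. The labels give no doses, so the drugs may not be matched in dose. Mgl2 was higher after clonidine than after guanabenz in every library, as was Clec10a, at log2 differences of 0.90 ± 0.46 and 0.60 ± 0.43. Neither passed the test (adjusted p = 0.957 for each), and none of the 9 reached an unadjusted p under 0.05, beside 5.05% of all genes. The 2 genes whose groups did not overlap stand beside 9.07% of all genes, and 0% were called. For Chil3 the drugs differed by -0.07 ± 0.44, with a 95% interval of -1.002 to 0.868.

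In KO hosts, clonidine gave 5 positive and 4 negative differences, with a median of 0.06 that was -0.24 without KO-Clonidine 2. None of the 9 passed or reached an unadjusted p under 0.05; over all genes, 0.0186% were called and 5.52% had such a p. Folr2 was the only gene whose groups did not overlap, at 26.5, 22.3 and 28.8 CPM in KO-Control and 30.7, 37.4 and 30.1 CPM in KO-Clonidine, beside 8.83% of all genes. Its log2 difference was 0.34 ± 0.31 (adjusted p = 0.991). Chil3 was at 1.38, 2.67 and 3.24 CPM in KO-Control and at 5.07, 4.12 and 2.64 CPM in KO-Clonidine, and its difference of 0.68 ± 0.45 had an adjusted p of 0.975. Mgl2 was at 5.43, 3.04 and 4.44 CPM in KO-Control and at 2.97, 7.01 and 2.21 CPM in KO-Clonidine, with no side clearly higher (-0.08 ± 0.46).

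Arg1 had its widest spread in KO-Clonidine and KO-Control, and a narrow one in KO-Guanabenz and WT-Guanabenz (SD 4.77 and 4.58 CPM, n = 3 each). It was at 33.4, 106 and 72.3 CPM in KO-Control, 24.1, 48.6 and 107 CPM in KO-Clonidine and 38.3, 47.6 and 41.1 CPM in KO-Guanabenz. The lowest and the highest of all 18 libraries for Arg1 were both KO-Clonidine.

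The libraries titled KO-Guanabenz gave the lowest values of the series for most of the genes. All 9 log2 differences from KO-Control were negative, with a median of -0.60 beside -0.01 over all genes, and none passed (0.0124% of all genes were called). Cd163 alone reached an unadjusted p under 0.05, beside 15.1% of all genes. It was at 9.09, 8.68 and 12.0 CPM in KO-Control and at 3.89, 1.86 and 9.09 CPM in KO-Guanabenz, a log2 difference of -1.003 ± 0.448 (adjusted p = 0.302). Without KO-Guanabenz 3 the Cd163 difference was -1.79 (adjusted p = 0.0712), and without KO-Guanabenz 2 it was -0.62. Folr2 was at 15.9, 8.30 and 26.9 CPM in KO-Guanabenz (-0.60 ± 0.32, adjusted p = 0.384), and Lyve1 at 2.21, 1.19 and 7.00 CPM beside 3.47, 7.80 and 4.50 CPM in KO-Control. None of the 9 had groups that did not overlap, beside 19.6% of all genes.

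For Cd163, Chil3, Mgl2, Clec10a, Folr2 and Lyve1 the low values came from 2 of the 3 libraries. Arg1 was instead below its mean over all libraries in all 3. Its log2 difference from KO-Control was -0.74 ± 0.45 (edgeR adjusted p = 0.465). KO-Guanabenz 2 was the lowest of all 18 libraries for Mrc1, Cd163, Chil3, Folr2 and Lyve1, and below the gene's mean for 9 of 9 genes. KO-Guanabenz 1 was the lowest for Mgl2 and Clec10a and below the mean for 8 of 9. KO-Guanabenz 3 was below the mean for 2 of 9, Arg1 and Ccl24. Averaged over the 9 genes, the 3 libraries lay at -1.11 (KO-Guanabenz 2), -0.82 (KO-Guanabenz 1) and 0.14 (KO-Guanabenz 3) log2 units from the means. Without KO-Guanabenz 3 the median difference from KO-Control was -1.08, and without KO-Guanabenz 2 it was -0.19. The Y-linked genes split these libraries in the same way, at a mean of 13.8 and 15.8 CPM in KO-Guanabenz 1 and 2 and 0.175 CPM in KO-Guanabenz 3. With the Y-linked term the median difference was -0.61. The part of this split in the low values within the group was not tested. A general macrophage list of 19 genes, among them Adgre1, Csf1r, Cd68 and C1qa, stayed within its range over the other groups. Its mean log2 CPM was 7.55, 7.58 and 7.49 in KO-Guanabenz 1, 2 and 3, within the 7.34 to 7.69 of all libraries. Against KO-Control, 15 of its differences were positive and 4 negative, with a median of 0.04. None was called, and 2 had an unadjusted p under 0.05, beside 15.1% of all genes. Adgre1 was 1 of these 2, at 0.32 ± 0.14. Within the list of 18 resident and perivascular macrophage genes, 13 differences from KO-Control were negative and 5 positive, with a median of -0.45 and none called. Lists of other cells differed in the sign of their median for KO-Guanabenz minus KO-Control. It was -0.79 for eosinophil and mast cell genes, -0.69 for adipocyte genes and -0.63 for neutrophil genes. For T cell genes it was 0.12, for dendritic cell genes 0.06 and for lymphatic endothelial genes 0.06. The part of these cells in the values of the 9 genes was not tested.

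**Figure D3:**
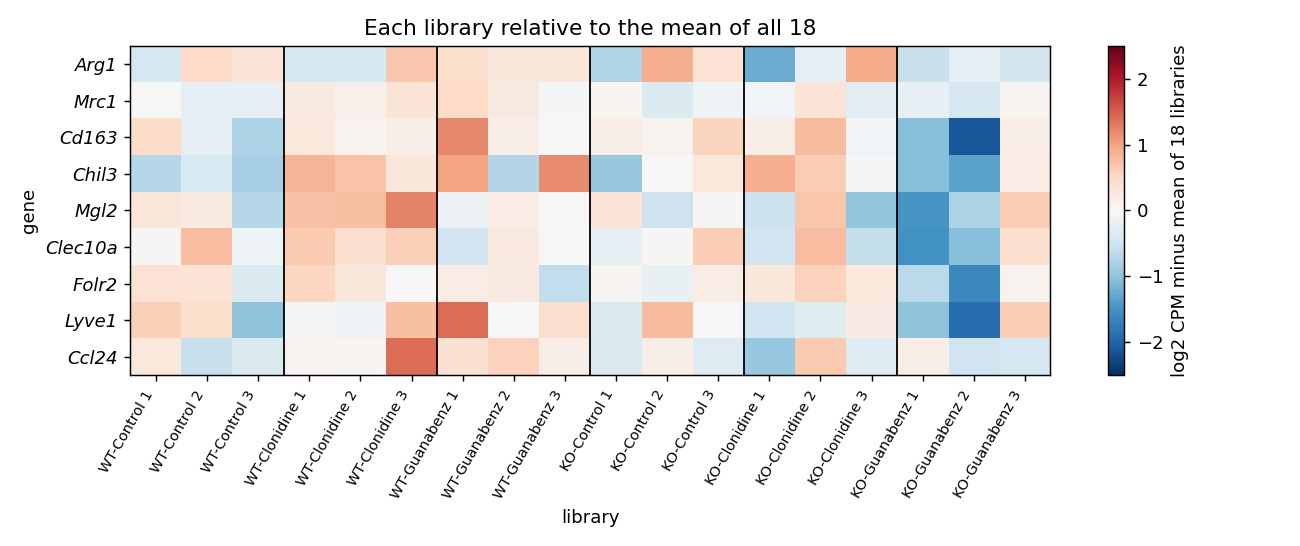
Each gene (rows) in each of the 18 libraries (columns, black lines between groups), as log2 CPM minus the gene's mean over all libraries; red is above and blue below. KO-Guanabenz 1 and 2 are blue for nearly all genes while KO-Guanabenz 3 is not, and the WT-Clonidine columns are red for Chil3 and Mgl2.

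Whether a drug's difference depended on the host's genotype was tested as an interaction, WT difference minus KO difference. For clonidine 8 of 9 were positive with a median of 0.41. None passed, and none reached an unadjusted p under 0.05 (0% and 8.94% of all genes). With 1 library left out the median ran from 0.17 (without WT-Clonidine 3) to 0.57 (without KO-Control 1). It was 0.61 with the Y-linked term and 0.20 with KO-Guanabenz read as KO-Control, where Arg1 and Cd163 were also negative. Mgl2 had the largest value, 1.01 ± 0.65, with a 95% interval of -0.37 to 2.38 and adjusted p = 0.675. For guanabenz all 9 were positive with a median of 0.62, none passed (0.0062% of all genes did), and Chil3 and Cd163 reached an unadjusted p under 0.05, beside 5.71% of all genes. Their values were 1.78 ± 0.64 and 1.64 ± 0.63, both with adjusted p = 0.866. These guanabenz values rest on the libraries whose treatment is in conflict, and without KO-Guanabenz 3 the median was 1.11.

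Between the control groups of the 2 genotypes, none of the 9 passed the test. KO-Control and WT-Control overlapped for all 9, beside 8.33% of genes that did not, and 0.0062% of all genes were called and 3.68% had an unadjusted p under 0.05, against none of the 9. The largest difference, KO minus WT, was 0.50 ± 0.45 for Chil3 (adjusted p = 1.00). Mrc1 differed by 0.02 ± 0.16, with a 95% interval of -0.31 to 0.36.

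Averaged over the 3 treatments, KO minus WT was negative for all 9 genes, with a median of -0.29 (-0.50 without KO-Guanabenz 3), and none passed, beside 0.416% of all genes. Mrc1 alone had an unadjusted p under 0.05 (17.4% of all genes), at -0.20 ± 0.09 and adjusted p = 0.278. With the guanabenz groups kept out of the average, an alternative chosen after seeing the data, the median was -0.09 and Chil3, Cd163 and Arg1 were positive, at 0.20, 0.28 and 0.09.

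The 9 genes were then compared with each other. Of the 36 pairs of genes, 33 had a positive Pearson r over the 18 libraries, with a median of 0.46. After adjustment over the 36 pairs, 8 had a permutation p under 0.05 for r and 3 for both r and Spearman's rho. The permutations shuffled all 18 libraries without regard to group, so differences between groups enter these p-values. The closest pair was Mgl2 and Clec10a, which share 31-base words, at r = 0.84 and rho = 0.78 (adjusted permutation p = 0.00036 and 0.0072). It stood at 0.77 without the 2 libraries farthest from the median of Mgl2 and at 0.83 for deviations from the group means. The other 2 were Mrc1 with Cd163 (r = 0.71, rho = 0.72) and Mrc1 with Mgl2 (r = 0.69, rho = 0.70). Without KO-Guanabenz 2 and WT-Guanabenz 1, the 2 libraries farthest from the median of Mrc1, their r was 0.53 and 0.80. Cd163 and Folr2 had r = 0.84, but 0.47 without KO-Guanabenz 1 and 2, and Cd163 and Lyve1 had r = 0.78 and rho = 0.35, and r = 0.50 without the same libraries, so these 2 relations rest largely on those libraries. Arg1 and Mrc1 had the lowest r of the 36 pairs, -0.11.

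**Figure D4:**
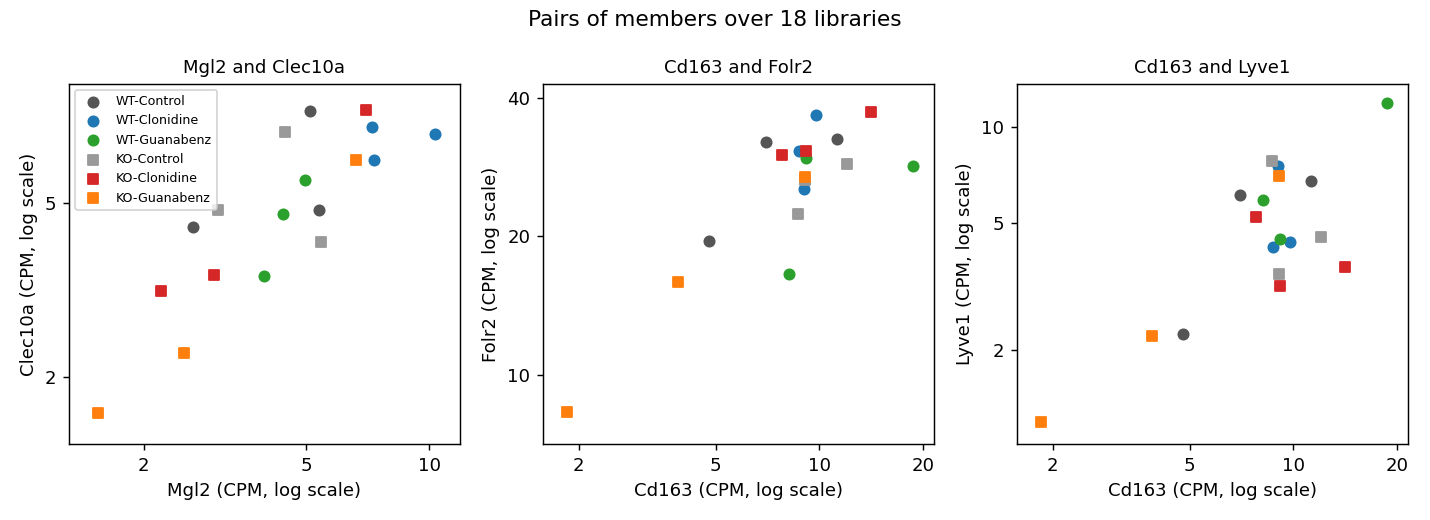
Levels of 3 pairs of genes in CPM on log axes, 1 point per library, coloured by group, with circles for WT and squares for KO hosts. Mgl2 and Clec10a follow each other over the whole range, while the relations of Cd163 with Folr2 and Lyve1 are drawn out by the 2 low KO-Guanabenz libraries.

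For each gene the 3 most alike of 11865 genes at a mean log2 CPM of at least 1 were listed by r over the 18 libraries, as a description. For Cd163 they were Npl, Fcna and Cbr2 (r = 0.90, 0.89 and 0.89), and for Folr2 Cbr2 came first (0.92). Fcna also came first for Lyve1 (0.84). The nearest gene to Mgl2 was Ccl22 (0.89), a chemokine for Ccr4-bearing T cells. Arg1 was nearest to AA467197, Srgn and Mmp12 (0.88, 0.87 and 0.85), and Mrc1 to Rcsd1, Tns1 and Stard8 (0.91, 0.90 and 0.90). The nearest to Chil3 were Myh4, Naa50 and Dkc1, at 0.81, 0.80 and 0.79.

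Of the rest of the pathway, the receptor chain Il4ra was at 107 to 148 CPM and Stat6 at 125 to 145 CPM in all libraries. The ligands were scarce: Il4 was at 1.06 to 1.82 CPM, and Il13 had 0 to 7 counts per library, at 0 in 4 of 18. None of the 14 tested genes of interleukin 4 and 13 signalling passed in any comparison. For guanabenz in KO hosts 13 of the 14 were positive, with a median of 0.16, while all 9 marker genes were negative there. Of the 14, 4 had an unadjusted p under 0.05, beside 15.1% of all genes. For clonidine in WT hosts 8 of 14 were positive, with a median of 0.04. There 3 of the 14 were higher and 1, Il4ra, lower at an unadjusted p under 0.05, beside 12.9% of all genes. Il4ra was lower in all 3 WT-Clonidine libraries than in all 3 WT-Control libraries, at a log2 difference of -0.22 ± 0.09 (edgeR adjusted p = 0.304). These groups did not overlap for 20.9% of all genes tested. No call was made either for the 14 tested genes among other targets of alternative activation, the 10 of arginine and polyamine metabolism and the 13 of classical activation.

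Of the 14 tested genes among those other targets, 7 were higher and 7 lower in WT hosts after clonidine, with a median log2 difference of 0.003. The key genes of that list with the largest positive differences in WT hosts after clonidine were 2 chemokines. Ccl22 was at 4.02 ± 0.907 CPM (SD, n = 3) in WT-Control and 8.01 ± 0.841 CPM in WT-Clonidine, a log2 difference of 1.00 ± 0.34 (SE; edgeR adjusted p = 0.228). Ccl17, which binds the same receptor, was at 0.927 ± 0.232 and 2.86 ± 0.362 CPM (SD, n = 3), a log2 difference of 1.64 ± 0.56 (edgeR adjusted p = 0.232). The groups did not overlap for either chemokine, beside 20.9% of all genes tested. Both chemokines are made by dendritic cells as well as by macrophages. Of the other enzymes that use arginine, Nos2, which makes nitric oxide from it, had a log2 difference of -0.94 ± 0.61 after clonidine in WT hosts, and Arg2, the second arginase, one of -1.07 ± 0.56, with edgeR adjusted p of 0.543 and 0.432.

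Summed levels of other cells' markers in WT hosts are given beside these values, with no test. The summed level of 10 dendritic cell genes was 380 to 430 CPM in WT-Control and 428 to 489 CPM in WT-Clonidine. The 12 eosinophil and mast cell genes summed to 10.0 to 14.8 and 19.0 to 32.8 CPM, and the 11 T cell genes to 30.2 to 39.2 and 49.3 to 61.8 CPM. The sums of the eosinophil and mast cell genes and of the T cell genes did not overlap, while those of the dendritic cell genes did. The 19 macrophage genes summed to 7449 to 8825 and 7670 to 8857 CPM, which overlapped. The markers of lymphatic endothelium differed in level. Prox1 was at 0.0131 to 0.233 CPM, Mmrn1 at 0.0262 to 0.756 CPM and Flt4 at 6.55 to 8.96 CPM, beside Lyve1 at 1.19 to 11.9 CPM. The part of these cells in the values of Chil3, Mgl2 and Ccl24 was not tested.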

How the data were processed

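Bulk RNA-seq from 18 tumour libraries was used as deposited: 1 table of expected counts per gene. The authors made it with Trim Galore 0.6.5 and kallisto 0.46.0 on GRCm38, per the submitters' processing notes. The counts are whole numbers as deposited, and neither the summing of transcripts to genes nor strandedness is stated in the sources used here. kallisto divides reads shared between transcripts, so values of genes with shared sequence are less certain.

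Groups came from sample titles. Symbols were matched in RefSeq for 20994 of 21015 identifiers; the 21 others held at most 0.0216% of any library's counts. Genes were kept with filterByExpr (16125). After TMM scaling, edgeR 4.0.16 (in R 4.3.3) was fitted to all 18 libraries with a mean for each of 6 groups, followed by two-sided quasi-likelihood tests, adjusted by Benjamini-Hochberg within each of 9 comparisons, with 12 residual degrees of freedom; intervals are 95%. CPM use TMM-scaled totals. Transcript lengths and shared 31-base words came from GENCODE M21. Within each group, no 2 libraries were alike enough to be duplicates. Pairs of libraries from different groups were not checked for this. The script was tested on simulated data. Pair correlations used 100000 permutations.

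The 10 genes and 12 companion lists were chosen with earlier results of these data known. All 9 analysed genes, and the key genes of each list, could be named; the 3 most alike genes were named by r. A check of marker genes of the labelled tissue was chosen after seeing the data. Alternatives were DESeq2 1.42.0, RLE scaling, no filter, a mean CPM of at least 1, a replicate block, the compared groups alone, KO-Guanabenz left out or read as KO-Control, a Y-linked term, a macrophage covariate, leaving out each library, and, chosen after seeing the data, the genotype averaged without the guanabenz groups.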

Additional observations from a re-analysis of the deposited data

How the results depend on the processing

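None of the 9 genes passed under any alternative in any comparison; the smallest adjusted p was 0.0676, for Chil3 in WT hosts after clonidine with the compared groups alone, against 0.249 in the reported fit. DESeq2 gave no adjusted p for 2 member values. Of 2205 member values under alternatives, 85 changed sign, and in 1 of them the reported value exceeded its SE: Chil3 for the genotype averaged went from -0.29 to 0.20 without the guanabenz groups. The cause was not tested.

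Counts over all genes depended more on the method. DESeq2 called 355 (WT clonidine), 171 (WT guanabenz), 29 (KO clonidine), 457 (KO guanabenz), 37 (clonidine by genotype), 13 (guanabenz by genotype), 4 (clonidine against guanabenz), 17 (genotype under control) and 618 (genotype averaged), where the reported fit called 0, 0, 3, 2, 0, 1, 0, 1 and 67. RLE scaling and no filter each gave 1 for WT guanabenz, and no filter 3 for clonidine by genotype. A mean CPM of at least 1 gave 22 for KO guanabenz, 3 for clonidine by genotype, 2 for guanabenz by genotype and 0 for genotype under control. The replicate block gave 0 for KO clonidine, KO guanabenz and genotype under control, as did the compared groups alone. Reading KO-Guanabenz as KO-Control gave 0 for KO clonidine and 2 for genotype under control. The Y-linked term gave 1, 11, 2 and 0 for KO clonidine, KO guanabenz, clonidine by genotype and genotype under control. The macrophage covariate gave 1 and 1 for the WT drug comparisons, 0 for KO guanabenz, 0 for genotype under control and 28 for genotype averaged.

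Leaving out 1 library gave 0 to 55 calls for WT clonidine (55 without WT-Control 2), 0 to 1 for WT guanabenz, 0 to 4 for KO clonidine, 0 to 85 for KO guanabenz (85 without KO-Guanabenz 3), 0 to 2 for clonidine by genotype, 1 to 4 for guanabenz by genotype, 0 to 1 between the drugs, 0 to 2 for genotype under control and 7 to 111 for genotype averaged (7 without KO-Guanabenz 1, 111 without WT-Guanabenz 3). Reading KO-Guanabenz as KO-Control moved the median of the 9 genes from 0.06 to 0.17 for KO clonidine and from 0.02 to -0.14 for genotype under control, and the macrophage covariate moved it from 0.28 to 0.44 for WT clonidine. With 1 library left out, the median of the 9 genes ran from -1.08 to -0.19 for KO guanabenz and from 0.50 to 1.11 for guanabenz by genotype. Replicate numbers did not pair the libraries: deviations of same-numbered libraries had a median r of 0.0104, and 5 of 18 libraries were closest to their own number. Leaving out KO-Guanabenz, or reading it as KO-Control, gives no value for comparisons that need it.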
